A study of Mus musculus with 4 samples.

Results

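The 10 genes described here stand around the nuclear receptor PPAR-gamma and the handling of fatty acids: Pparg itself, the fatty acid binding protein genes Fabp4 and Fabp5, the fatty acid receptor gene Cd36, the lipid droplet genes Plin2 and Hilpda, the desaturase genes Scd1 and Scd2, the triacylglycerol synthesis gene Dgat2 and the acyl-CoA synthetase gene Acsl1. They were taken by gene symbol, 10 of the 55414 genes listed, with no threshold on measured values. Macrophages from the mouse peritoneum had been kept for 24 h in complete medium alone, the vehicle group, or in medium with LUP at 0.5 mg/ml, and their RNA was sequenced. The labels do not spell out LUP, and give no strain, sex, age or genotype. Each group had 2 libraries, numbered 1 and 2, and nothing in the labels says that these came from separate animals or cultures, so the p-values measure only the spread between these libraries.

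PPAR-gamma is a fatty acid sensing transcription factor that binds DNA as a heterodimer with a retinoid X receptor. In macrophages it is known for driving lipid uptake and storage genes, among them Cd36, Fabp4 and Plin2. A fatty acid that enters the cell is carried by binding proteins, activated to its acyl-CoA by synthetases such as Acsl1, desaturated by Scd enzymes, and built into triacylglycerol by Dgat enzymes for storage in droplets coated by perilipins.

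Start-site windows were available for 5 of the 10 genes, Pparg, Cd36, Plin2, Hilpda and Acsl1, as 9 windows of 250 bases before to 50 bases after a RefSeq transcript start (RefSeq, GRCm38.p6). No window was at hand for Fabp4, Fabp5, Scd1, Scd2 and Dgat2. The windows below are those of the receptor gene, of a pair of its known target genes and of the gene that rose most, printed on the strand of the gene. Capitals mark AGGTCA, the core hexamer to which nuclear receptors of this class bind, or its reverse complement TGACCT. The first Pparg window is chr6:115360894-115361193 and the second chr6:115362099-115362398, both on the plus strand. The Cd36 window is chr5:17835847-17836146 and the Plin2 window chr4:86670010-86670309, both on the minus strand, and the first Acsl1 window is chr8:46470787-46471086 on the plus strand.
Pparg, first start: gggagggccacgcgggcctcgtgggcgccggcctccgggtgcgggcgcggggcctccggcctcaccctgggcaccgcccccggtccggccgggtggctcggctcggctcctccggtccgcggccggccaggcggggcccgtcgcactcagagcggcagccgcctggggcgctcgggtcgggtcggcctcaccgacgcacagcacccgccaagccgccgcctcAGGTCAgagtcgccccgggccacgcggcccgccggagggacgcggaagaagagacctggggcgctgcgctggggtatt
Pparg, second start: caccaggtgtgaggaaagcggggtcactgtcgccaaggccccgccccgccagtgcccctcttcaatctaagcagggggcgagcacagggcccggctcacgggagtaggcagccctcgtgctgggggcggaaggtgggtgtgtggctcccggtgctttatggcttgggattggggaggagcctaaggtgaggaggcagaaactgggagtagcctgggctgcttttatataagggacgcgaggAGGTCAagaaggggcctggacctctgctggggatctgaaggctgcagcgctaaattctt
Cd36: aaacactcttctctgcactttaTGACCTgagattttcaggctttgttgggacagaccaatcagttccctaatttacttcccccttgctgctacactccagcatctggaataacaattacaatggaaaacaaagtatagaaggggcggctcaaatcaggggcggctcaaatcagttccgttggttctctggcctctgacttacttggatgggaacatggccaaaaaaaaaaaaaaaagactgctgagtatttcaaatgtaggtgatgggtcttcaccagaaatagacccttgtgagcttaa
Plin2: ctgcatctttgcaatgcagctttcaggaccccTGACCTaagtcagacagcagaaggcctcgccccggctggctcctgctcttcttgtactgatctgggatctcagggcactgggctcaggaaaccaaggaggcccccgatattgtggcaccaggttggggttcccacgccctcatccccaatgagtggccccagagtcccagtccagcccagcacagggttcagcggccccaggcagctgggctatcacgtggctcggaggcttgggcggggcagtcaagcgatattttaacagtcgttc
Acsl1, first start: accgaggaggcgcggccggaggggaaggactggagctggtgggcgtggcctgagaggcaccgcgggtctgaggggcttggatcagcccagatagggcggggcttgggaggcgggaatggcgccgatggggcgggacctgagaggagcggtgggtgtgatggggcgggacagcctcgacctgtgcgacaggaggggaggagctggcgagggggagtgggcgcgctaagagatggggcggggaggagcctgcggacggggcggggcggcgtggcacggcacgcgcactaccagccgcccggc

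Counted from the transcript start along the gene's strand, the hexamer began at -28 in the first Pparg window, at -9 in the second, at -228 in the Cd36 window and at -218 in the Plin2 window. It was not in the third Pparg window, in either Hilpda window or in either Acsl1 window. Over all 32851 RefSeq mouse windows of this length, searched on both strands, 16.3% held it. The direct repeat AGGTCANAGGTCA, which contains the hexamer at both ends, was in 0.0396% of all windows and in none of the 9. These letters describe the windows and say nothing about binding in these cells.

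Total expected counts ran from 19949818 to 23617618 per library. All 10 genes passed edgeR's filter on low counts, but Dgat2 only through its LUP libraries, where it is higher. Passing in that way favours a higher LUP value, so Dgat2 is left out of the counts here. Of the other 9 genes 6 fell with LUP (Pparg, Fabp4, Fabp5, Cd36, Plin2 and Hilpda), 2 rose (Scd2 and Acsl1) and Scd1 was not called. Of all 13355 genes tested, 50.8% were called at an adjusted p under 0.05, 23.7% lower and 27.1% higher, so a call by itself was common in this comparison. Pparg, Fabp4 and Acsl1, 3 of the 9, were called and differed at least 2-fold, which 11.3% of all tested genes did. The TPM values of the groups did not overlap for 8 of the 9 genes, and for 69.9% of all genes tested. Folds and tests below come from edgeR's quasi-likelihood test on the counts, with p-values adjusted by Benjamini-Hochberg over all tested genes, so a fold need not equal the quotient of TPM levels. Together the 10 genes held 0.826% and 0.827% of the listed TPM in the vehicle libraries and 0.528% and 0.573% in the LUP libraries. In bulk RNA, fewer cells of a type and less RNA per cell cannot be told apart.

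**Figure D1:**
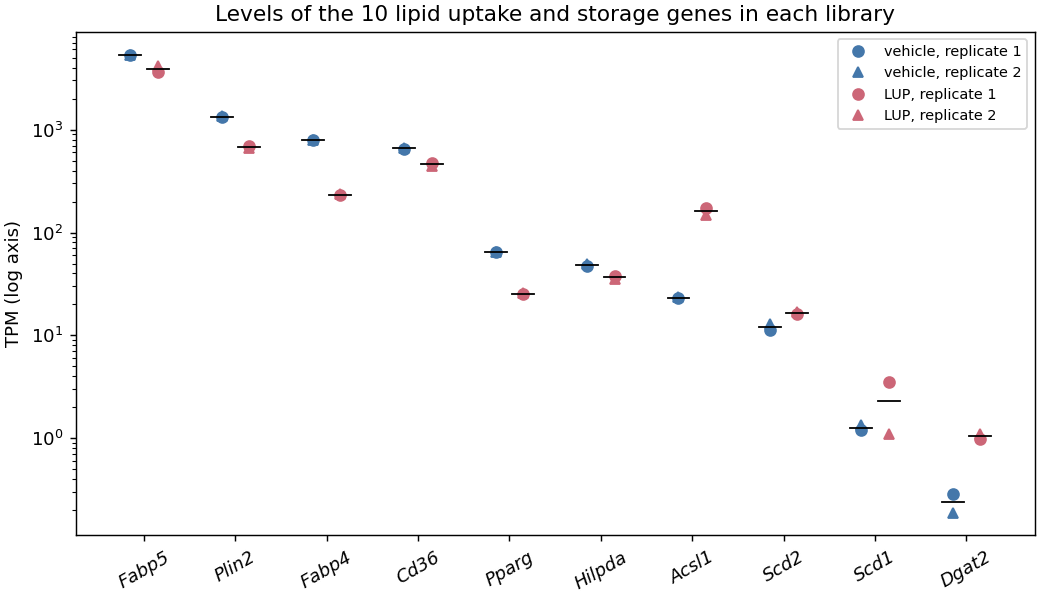
Level of each of the 10 genes in each library in TPM on a log axis, ordered by the vehicle mean, with vehicle in blue, LUP in red and short lines at the group means (n = 2 libraries). The genes span from 5281 TPM (Fabp5) to 0.240 TPM (Dgat2) in vehicle, and for Scd1 alone the LUP points lie on both sides of the vehicle points.

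Pparg, the gene of the receptor, fell. It stood at 64.9 and 64.7 TPM in the vehicle libraries and at 25.1 and 25.6 TPM in the LUP libraries. Both LUP libraries lay far below both vehicle libraries, and replicates differed by less than 1 TPM. The fitted fold was 2.33-fold lower with LUP (log2 fold change -1.22, SE 0.0587, 95% interval -1.34 to -1.10, adjusted p = 1.857e-12). Of the other receptors of its family, Ppard, the broadly expressed PPAR-delta gene, rose from 30.2 and 31.6 TPM to 33.2 and 35.3 TPM (1.17-fold, adjusted p = 0.002662). The log2 fold change of Ppard, 0.22, lay between the quartiles of all tested genes, -0.313 and 0.291. Under other scalings or measures it was as low as 0.109. In vehicle Pparg lay above Ppard in both libraries, and with LUP it lay below it in both. Ppara, the fatty acid oxidation receptor of liver, had 1 read in each vehicle library and none in either LUP library, and was not tested.

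The genes of fatty acid uptake and intracellular binding fell by different amounts. Fabp4, the adipocyte-type binding protein, was at 796 and 795 TPM in vehicle and 230.3 and 235 TPM with LUP. Replicates lay within a few TPM of each other and the groups were wide apart. It was 3.37-fold lower (log2 fold change -1.75, SE 0.0405, 95% interval -1.84 to -1.67, adjusted p = 2.61e-17), the largest fall of the 10. Fabp5, the epidermal-type binding protein, was the most abundant of the 10 genes in every library, at 5290.3 and 5272 TPM in vehicle and 3608 and 4134 TPM with LUP. Its LUP libraries differed more from each other than its vehicle libraries did, but both were lower than both vehicle libraries. The fold was 1.27-fold lower (log2 fold change -0.35, SE 0.0501, 95% interval -0.45 to -0.24, adjusted p = 1.094e-05). Cd36, a scavenger receptor that takes up long-chain fatty acids and oxidised lipoprotein, was at 649 and 664 TPM in vehicle and 474 and 443 TPM with LUP. Its groups did not overlap, and it was 1.34-fold lower (log2 fold change -0.42, SE 0.0346, 95% interval -0.50 to -0.35, adjusted p = 4.999e-09).

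Endothelial cells also express Fabp4 and Cd36. Of 10 endothelial marker genes, 4 (Emcn, Cldn5, Gpihbp1 and Rbp7) were at 0 in every library. The marker sum was 95.2 and 103.2 TPM in vehicle and 36.4 TPM in both LUP libraries, and nearly all of it was Vwf, the von Willebrand factor gene. Vwf read 89.8 and 97.1 TPM in vehicle and 30.1 and 32.5 TPM with LUP, while Pecam1 was at most 0.44 TPM and Cdh5 at most 1.65 TPM in any library. Kdr went from 5.11 and 5.22 TPM in vehicle to 4.28 and 3.25 TPM with LUP. Of the 3 endothelial markers tested 2 fell, none rose and 1 was not called (median log2 fold change -0.35). Adipocyte markers were scarcer still: Adipoq, Lep, Plin1, Cidec, Cidea, Retn and Adig, 7 of 10, were at 0 in every library, and the sum was 10.6 and 12.6 TPM in vehicle and 15.1 and 13.6 TPM with LUP, nearly all of it Lipe. Neutrophil markers summed to 117 and 122 TPM in vehicle and 349 and 310.1 TPM with LUP, with S100a9, Mpo and Ly6g, 3 of 12, at 0 in every library. Most of that gain was Mmp8 (15.9 and 14.5 TPM to 213 and 179.8 TPM) and S100a8 (29.2 and 32.3 TPM to 89.6 and 86.9 TPM), while Csf3r fell from 71.2 and 74.0 TPM to 43.2 and 40.5 TPM and Cxcr2 from 0.37 and 0.58 TPM to 0.11 and 0.05 TPM. Of the 5 neutrophil markers tested 3 rose and 2 fell. Dendritic cell markers summed to 129.8 and 125 TPM in vehicle and 67.8 and 71.8 TPM with LUP, nearly all of it Itgax, which fell from 124.6 and 120.1 TPM to 57.8 and 60.3 TPM. Ccr7 rose from 0.43 and 0.48 TPM to 3.89 and 4.43 TPM, and of the 5 dendritic markers tested 1 rose, 1 fell and 3 were not called (median log2 fold change 0.54). Mesothelial and fibroblast markers summed to 99.3 and 108 TPM in vehicle and 120.5 and 95.5 TPM with LUP. Of the 11 tested 2 rose, 6 fell (5 of them at least 2-fold) and 3 were not called, with a median log2 fold change of -0.59. B cell markers summed to 140.6 and 148.4 TPM in vehicle and 111.8 and 104.7 TPM with LUP. Of the 2 B cell markers tested 1 fell and 1 was not called. The part of other cells in the values of the 10 genes was not tested. All 12 macrophage markers had reads in both groups, with sums of 27380.0 and 27010.0 TPM in vehicle and 21567 and 21760.0 TPM with LUP. The lysozyme gene Lyz2 made up most of that sum, at 22379 and 22088 TPM in vehicle and 15652 and 15999 TPM with LUP, and fell by more TPM than the sum. By gene, 6 of the 12 macrophage markers rose, 3 fell and 3 were not called, with a median log2 fold change of 0.99. Adgre1, a surface antigen gene of macrophages, rose from 115 and 123 TPM to 587 and 584 TPM, Csf1r from 319 and 325 TPM to 609 and 581 TPM, and Cd14 from 67.5 and 64.3 TPM to 206 and 194 TPM. Mertk, like Lyz2, was lower with LUP, at 29.2 and 29.1 TPM against 44.03 and 44.02 TPM in vehicle. Gata6 and Timd4, markers of resident large peritoneal macrophages, were low, at most 3.59 and 0.88 TPM in any library, and moved in opposite directions. Gata6 went from 2.67 and 3.59 TPM in vehicle to 1.34 and 1.10 TPM with LUP. Timd4 had counts of 0 and 1 in vehicle and of 28 and 20 with LUP.

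Within the Fabp family the balance between genes moved. The share of Fabp4 in the summed TPM of 9 Fabp genes was 12.9% in both vehicle libraries and 5.82% and 5.21% in the LUP libraries. That of Fabp5 was 85.6% and 85.7% in vehicle and 91.2% and 91.7% with LUP. The same direction held for the pair alone, where the Fabp4 share went from 13.1 ± 0.0157% to 5.69 ± 0.442% (SD, n = 2), a difference of -7.40 percentage points (exact permutation test, two-sided, p = 0.33, the smallest that 2 against 2 libraries can give). Fabp3, the heart-type binding protein, went the other way from Fabp4. It was at 28.1 and 27.3 TPM in vehicle and 97.2 and 117 TPM with LUP (4.15-fold higher, log2 fold change 2.05, adjusted p = 1.76e-12). Fabp7, the brain-type binding protein, fell from 65.0 and 58.1 TPM to 19.2 and 22.1 TPM (2.77-fold lower, adjusted p = 1.29e-09). Fabp4 and Fabp7 fell by more than 2-fold while Fabp3 rose by more than 2-fold, and the summed TPM of the family, carried by Fabp5, went from 6179 and 6153 TPM to 3955 and 4508 TPM.

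**Figure D2:**
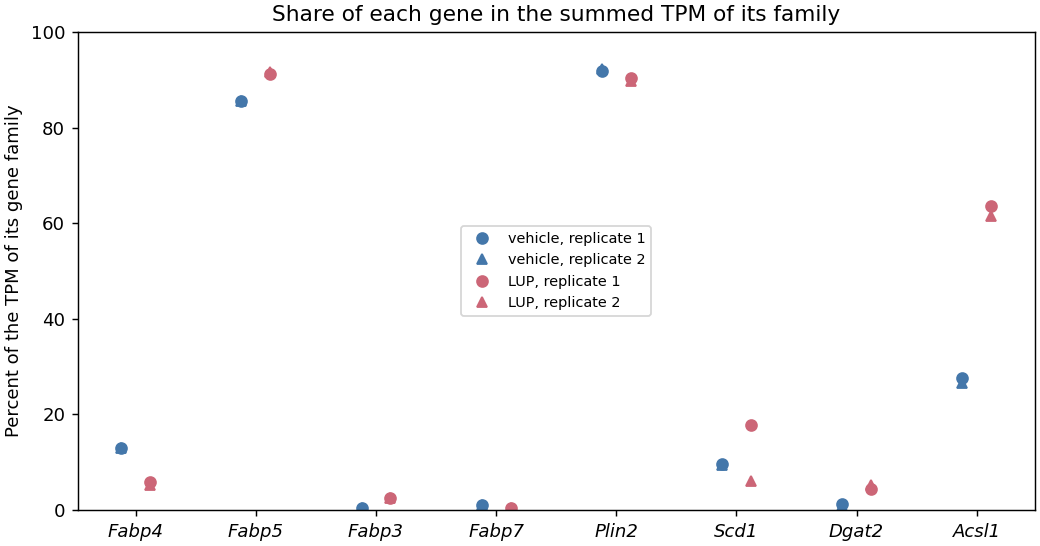
Share of a gene in the summed TPM of its gene family, in percent, for each library (vehicle blue, LUP red, circles replicate 1 and triangles replicate 2). Acsl1 rises from 27.6% and 26.6% to 63.7% and 61.4% of its family while Fabp4 falls from 12.9% to 5.82% and 5.21%, and the LUP points of Scd1 lie on both sides of vehicle.

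Both lipid droplet genes fell, Plin2 by more than Hilpda. Plin2, the perilipin that coats droplets in most cells outside fat, was at 1334 and 1342 TPM in vehicle and at 691.5 and 663 TPM with LUP. Replicates lay close together and the groups far apart, and it was 1.80-fold lower in the fit (log2 fold change -0.85, SE 0.0344, 95% interval -0.92 to -0.78, adjusted p = 1.319e-13). Plin2 remained the main perilipin transcript, with 92.0% and 92.3% of the summed perilipin TPM in vehicle and 90.4% and 89.8% with LUP. Plin3, a perilipin of nascent droplets, also fell, from 116 and 112 TPM to 73.6 and 75.3 TPM (1.43-fold lower, adjusted p = 1.216e-08). Plin1, the adipocyte perilipin, had no read in any library, and Plin4 and Plin5 were under 0.1 TPM. Hilpda, a small hypoxia-induced protein that inhibits triacylglycerol lipolysis, was at 47.1 and 49.4 TPM in vehicle and 38.2 and 35.35 TPM with LUP. The groups did not overlap, with a fold of 1.22-fold lower (log2 fold change -0.29, SE 0.0789, 95% interval -0.46 to -0.12, adjusted p = 0.004759). That change lay between the quartiles of all tested genes, -0.313 and 0.291, and DESeq2's Wald test did not call Hilpda (adjusted p = 0.0747).

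The largest rise was in fatty acid activation. Acsl1, which makes acyl-CoA from long-chain fatty acids, was at 23.2 and 23.4 TPM in vehicle and 173 and 149 TPM with LUP. Every LUP library was far above every vehicle library, and the fold was 7.27-fold higher (log2 fold change 2.86, SE 0.0524, 95% interval 2.75 to 2.97, adjusted p = 8.503e-19). By log2 rise it ranked 227 among the 13355 tested genes. In its family the share of Acsl1 went from 27.6% and 26.6% of the summed TPM to 63.7% and 61.4%. Acsl5 and Acsl4, other synthetases of long-chain acyl-CoA, also rose: Acsl5 from 36.5 and 37.3 TPM to 63.1 and 59.3 TPM (1.75-fold, adjusted p = 7.076e-12) and Acsl4 from 20.8 and 22.9 TPM to 31.99 and 30.5 TPM (1.53-fold, adjusted p = 5.009e-09). Acsl3 was not called, at 3.58 and 4.39 TPM in vehicle and 3.58 and 3.57 TPM with LUP (adjusted p = 0.4237). In vehicle Acsl5 was the most abundant of the family and with LUP Acsl1 was.

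**Figure D3:**
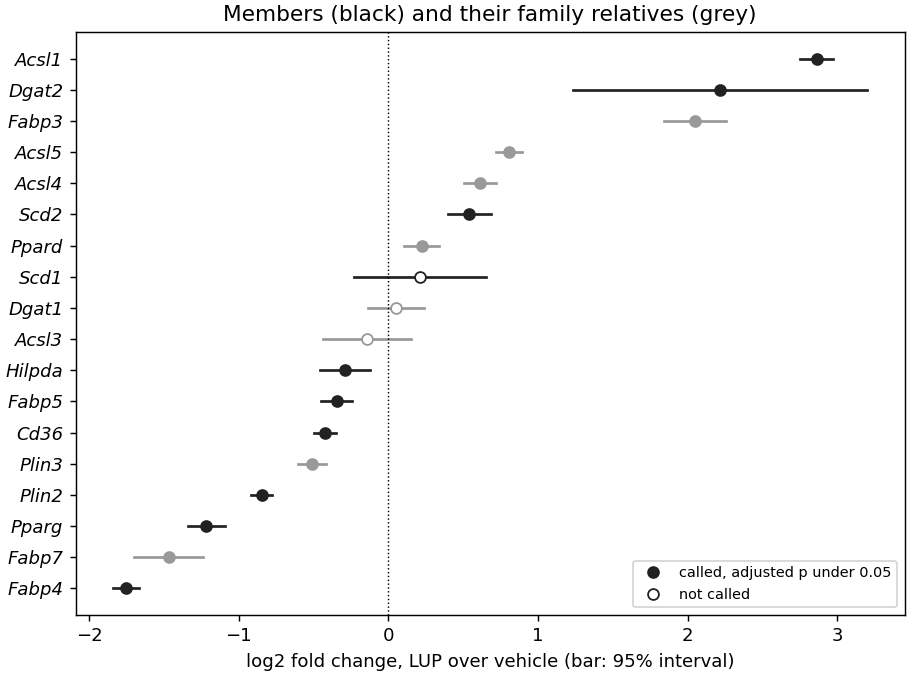
Log2 fold change, LUP over vehicle, of the 10 genes (black) and of their tested family relatives (grey), with 95% intervals from edgeR's fit over 2 libraries a group; filled points were called and open ones were not. Acsl1 (2.86) and Dgat2 (2.22) lie at the top and Fabp4 (-1.75) and Pparg (-1.22) near the bottom, with the Scd1 interval spanning 0.

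Of the desaturase genes 1 of 2 was called. Scd2, the stearoyl-CoA desaturase found widely outside the liver, was at 11.2 and 13.01 TPM in vehicle and 16.2 and 16.8 TPM with LUP. The groups did not overlap, and it was 1.46-fold higher (log2 fold change 0.54, SE 0.0685, 95% interval 0.40 to 0.69, adjusted p = 2e-06). Scd1, the main desaturase of liver and fat, was low, at 1.20 and 1.35 TPM in vehicle and 3.50 and 1.10 TPM with LUP. Its LUP libraries lay on both sides of the vehicle libraries, and it was not called (log2 fold change 0.21, 95% interval -0.23 to 0.65, adjusted p = 0.4331). Without LUP replicate 1 the log2 fold change was -0.08. The counts were 75 and 97 in vehicle and 126 and 82.1 with LUP, a smaller gap than in TPM. Count over TPM, scaled in each library to the listed gene lengths, gave a mean transcript length behind the Scd1 value of 2606 bases in LUP replicate 1 and of 5481 to 5527 bases in the other libraries, a 2.12-fold spread. For the other 9 genes this spread was at most 1.07-fold. In the Scd pair, the share of Scd1 in the TPM was 9.65% and 9.40% in vehicle and 17.8% and 6.15% with LUP, and the difference of the means, 2.45 percentage points, was -1.60 when counts were used in place of TPM (exact permutation test, two-sided, p = 1 and 0.33). Scd3 and Scd4 were under 0.1 TPM in every library.

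**Figure D4:**
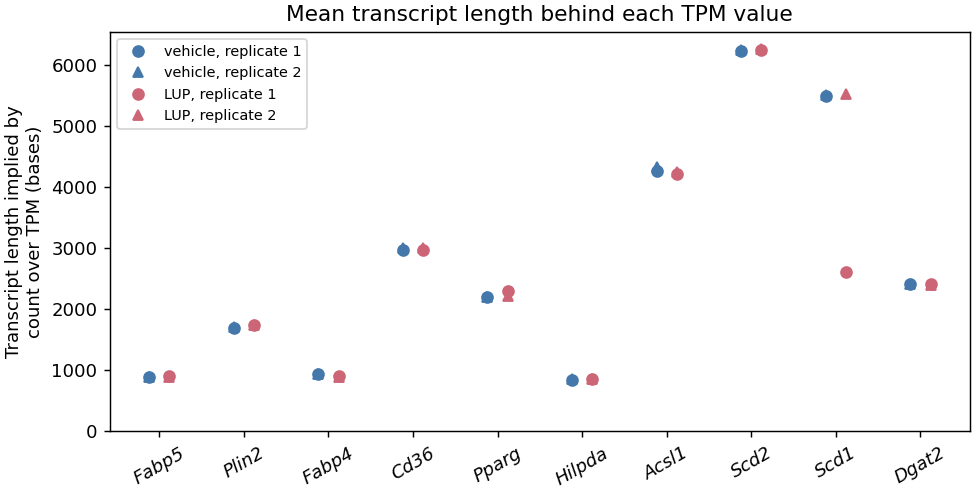
Mean transcript length, in bases, implied by the count over TPM of each gene in each library (vehicle blue, LUP red), scaled to the listed lengths. The 4 points of a gene lie together except for Scd1, where LUP replicate 1 sits at 2606 bases and the others at 5481 to 5527 bases.

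Dgat2, which catalyses the last step of triacylglycerol synthesis, was the rarest of the 10 genes. It was at 0.29 and 0.19 TPM in vehicle and at 0.99 and 1.11 TPM with LUP, from counts of 8 and 6 against 33 and 36. The LUP libraries were both higher, with a fitted fold of 4.64-fold (log2 fold change 2.22, SE 0.468, 95% interval 1.23 to 3.20), the widest interval of the 10. Because the gene entered the test through its LUP libraries alone, this is a description and its p-value is not read as support. With limma on log2(TPM + 1) and no filter the log2 difference was 0.73 and was not called (adjusted p = 0.101). Dgat1, the other enzyme of this step, was at 23.8 and 21.1 TPM in vehicle and 21.5 and 19.8 TPM with LUP and was not called (log2 fold change 0.05, adjusted p = 0.6598), its sign changing under upper-quartile scaling, quantile normalization and limma on TPM. Dgat2 held 1.20% and 0.891% of the summed TPM of the pair in vehicle and 4.41% and 5.31% with LUP.

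In vehicle the order of the levels was Fabp5, Plin2, Fabp4, Cd36, Pparg, Hilpda, Acsl1, Scd2, Scd1 and Dgat2, and no neighbours overlapped. With LUP, Cd36 stood above Fabp4, Acsl1 above Hilpda, and Hilpda above Pparg, and only Scd1 and Dgat2 overlapped. Counts of Pparg, Fabp4, Cd36, Hilpda and Dgat2 were within 0.001 of a whole number in all libraries, and those of Fabp5, Plin2, Scd1, Scd2 and Acsl1 were not, since reads that fit several genes were shared out. How the shared reads of those 5 were split is therefore uncertain. For Scd1, Scd2 and Acsl1 the vehicle counts were whole and only LUP counts were not. Summed over the Scd pair, the LUP counts were 1521.99 and 1501.

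The other genes of these pathways moved in both directions. Over 8 lists that together held 150 genes, 120 were tested, of which 42 rose and 40 fell, 35.0% and 33.3% against 27.1% and 23.7% of all tested genes. The median log2 fold change was -0.03 over the lists and -0.0011 over all tested genes. Some genes stand in more than 1 list, such as Lpl and Fabp3. With limma on log2(TPM + 1) in place of the count test, 23 rose.

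Partners and regulators of PPAR-gamma, 16 tested of 18, had 4 higher and 6 lower, with a median log2 fold change of -0.10. Upper-quartile scaling and quantile normalization gave 2 higher and 10 lower, and limma on TPM gave 1 higher. The heterodimer partner Rxrb fell 1.39-fold, to 22.9 ± 0.990 from 35.4 ± 1.32 TPM (adjusted p = 1.78e-05), and Rxra fell 1.08-fold (adjusted p = 0.02282). The C/EBP factors, which act with PPAR-gamma in fat cells, differed in direction, with Cebpa 1.73-fold lower (adjusted p = 2.767e-12) and Cebpb 1.75-fold higher (adjusted p = 1.738e-09). Med1, a coactivator subunit, rose 1.14-fold (adjusted p = 0.02346). Target genes of PPAR-gamma in macrophages, 24 tested of 29, had 5 higher and 10 lower (median log2 fold change -0.10). Of the 5 higher genes 4 rose at least 2-fold, and of the 10 lower genes 1 fell as much. Over all tested genes, 851 of 3621 called higher and 661 of 3164 called lower changed at least 2-fold. Cat, the catalase gene, rose 2.37-fold (adjusted p = 1.86e-15), and Lpl, the lipoprotein lipase gene, rose 1.34-fold from 569 ± 24.3 to 722 ± 26.4 TPM (adjusted p = 3.806e-09). Ucp2, a mitochondrial carrier gene, fell 1.67-fold (adjusted p = 4.028e-12), Adipor1, an adiponectin receptor gene, 1.24-fold (adjusted p = 2.142e-06) and Acadl, a fatty acid oxidation enzyme gene, 1.25-fold (adjusted p = 1.704e-05).

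Of 17 tested uptake genes 8 rose and 6 fell (median 0.03), with 5 higher when genes under 5 TPM were left out. The scavenger receptor gene Msr1 rose 4.16-fold, from 52.2 ± 11.7 to 227 ± 26.8 TPM (adjusted p = 2.12e-17). Cd36 fell, as did Lrp1, a large endocytic receptor (1.59-fold, adjusted p = 2.145e-12), Lipa, the lysosomal lipase (1.39-fold, adjusted p = 6.275e-10), and Slc27a1, a fatty acid transporter (1.12-fold, adjusted p = 0.006672). Of 7 tested acyl-CoA synthetases beside Acsl1, 3 rose and 2 fell (median 0.24), with the cytosolic acetyl-CoA synthetase Acss2 up 4.64-fold (adjusted p = 4.656e-13) and its mitochondrial relative Acss1 down 1.42-fold (adjusted p = 3.098e-04). Acsf2, another synthetase, fell 1.66-fold (adjusted p = 3.669e-04).

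Of 11 tested desaturation and elongation genes beside the Scd pair, 4 rose and 2 fell (median 0.09). The elongase Elovl1 was 1.09-fold, the citrate lyase Acly 1.11-fold and the desaturase Fads1 1.13-fold higher, while Degs1 was 1.16-fold and Elovl5 1.10-fold lower (adjusted p from 1.47e-04 to 0.0484). For Elovl1 and Acly the TPM values of the groups overlapped, with TPM folds of 1.02 and 1.01. Higher calls here fell to 1 without vehicle replicate 2 and to 0 with limma on TPM. Triacylglycerol and sterol ester synthesis, 14 tested, had 7 higher and 2 lower (median 0.30). The acyltransferases Agpat1 (1.23-fold), Agpat4 (1.60-fold) and Lpcat3 (1.34-fold) rose, and Lpin1, a phosphatidate phosphatase, fell 3.02-fold from 13.9 ± 0.233 to 4.29 ± 0.170 TPM (adjusted p = 9.099e-13). Soat1, which esterifies cholesterol, fell 1.56-fold (adjusted p = 1.171e-11).

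Droplet coat and lipolysis genes beside Plin2 and Hilpda, 11 tested, had 3 higher and 4 lower (median -0.03). Pnpla2, the triacylglycerol lipase that Hilpda inhibits, fell 1.76-fold from 120.0 ± 1.40 to 60.3 ± 0.870 TPM (adjusted p = 6.064e-12), and Hsd17b11, a droplet protein, 1.27-fold (adjusted p = 1.749e-06). Lipe, hormone-sensitive lipase, was 1.39-fold higher (adjusted p = 3.839e-05), as were Aup1 (1.27-fold, adjusted p = 5.671e-07) and Fitm2 (1.31-fold, adjusted p = 0.03585). With limma on TPM no gene of this list was called higher. Of 22 tested hypoxia response genes 10 rose and 8 fell (median 0.0021), with 5 higher under limma on TPM. Hif1a and the glucose transporter Slc2a1 rose 1.86-fold and 1.63-fold (adjusted p = 6.122e-12 and 9.375e-11), and the glycolytic regulator Pfkfb3 1.23-fold (adjusted p = 1.603e-05). Epas1, the other hypoxia-inducible alpha subunit, fell 3.57-fold from 39.3 ± 1.82 to 10.3 ± 0.0566 TPM (adjusted p = 5.687e-16), and the hypoxia-responsive repressors Bhlhe40 and Mxi1 fell 1.89-fold and 1.90-fold (adjusted p = 1.284e-13 and 4.139e-11).

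**Figure D5:**
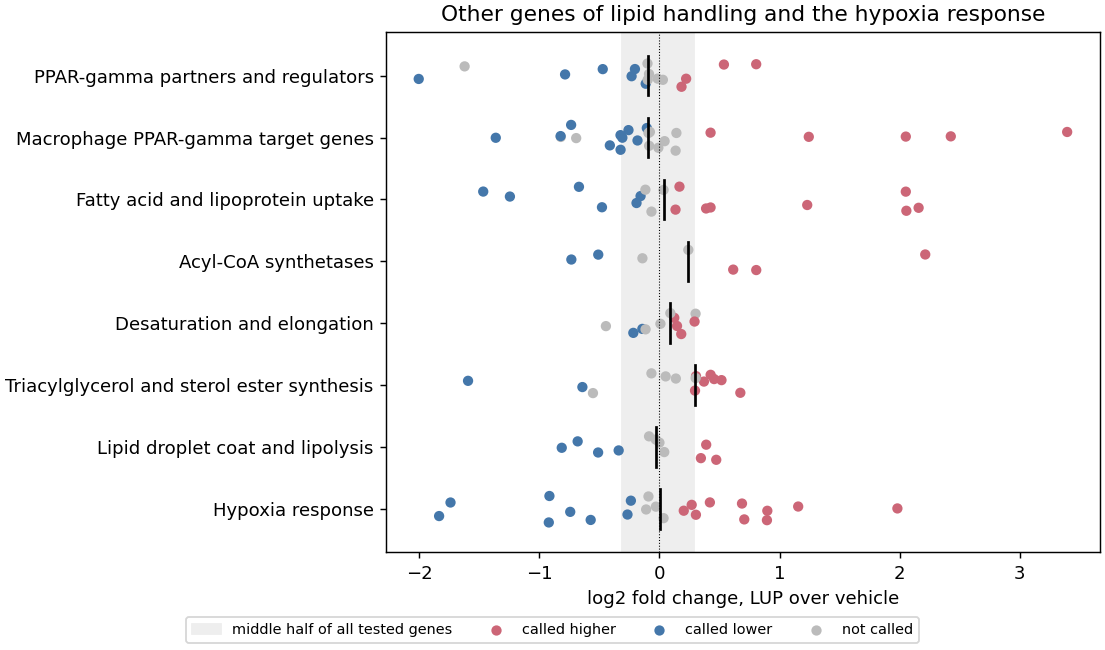
Log2 fold change, LUP over vehicle, of every tested gene of the 8 lists, by call, with a black line at the median of each list and a grey band from -0.313 to 0.291, the quartiles of all tested genes. Each list holds genes called in both directions, and the medians lie between -0.10 and 0.30.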

How the data were processed

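RNA of 4 libraries, 2 per group, was sequenced by the submitters. Per the labels, TRIzol RNA was made into paired-end libraries with a TruSeq kit, whose strand setting is not stated, so overlapping genes on opposite strands may share reads. The expected counts and the TPM values per library were deposited by the authors in 1 table, with RSEM, StringTie, HISAT2 and fastp as the tools, per the submitters' processing notes. The log2 fold, its ratio, the p-value and the adjusted p-value deposited by the authors are vehicle over LUP and were used only for comparison. Genome build and annotation are not given in the sources used here.

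Expected counts were rounded and tested with edgeR 4.0.16 (R 4.3.3, limma 3.58.1, DESeq2 1.42.0): TMM scaling, default low-count filter, quasi-likelihood test with treatment as the only term, Benjamini-Hochberg over 13355 genes, called at an adjusted p under 0.05. The script was tested on simulated data. The 14 alternatives cover scaling, filter, test, pseudocount, a replicate block and leaving out each library. Replicates were not identical (chi-square per degree of freedom 2.67 in vehicle and 3.50 in LUP). The 10 genes and the lists were chosen with earlier results of these data known. Named genes are all 10, up to 3 called higher and 3 called lower per list by mean TPM, and family relatives of at least 1 TPM on average; relatives below that level were named to account for the families. A gene of the uptake list that this rule names is not reported here.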

Additional observations from a re-analysis of the deposited data

How the results depend on the processing

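Counts of the 10 genes called, 3 higher (Dgat2 included) and 6 lower, stayed within 1.5 times under every alternative that gave a value. Hilpda was -0.29 under DESeq2's Wald test (adjusted p = 0.0747), and Dgat2 was 0.73 with limma on log2(TPM + 1) with no filter (adjusted p = 0.101), where the pseudocount exceeds its vehicle level; it could not be tested under the filters on TPM. Scd1 was -0.077 without LUP replicate 1, 0.45 without LUP replicate 2 and at most 0.60 over all alternatives (limma on log2(TPM + 0.1)), and its share moved by -1.60 points with counts. With limma on log2(TPM + 1), on log2(TPM + 0.1) and with no filter, genes called higher were 1935, 1920 and 1847 against 3621, and pathway-list genes called higher 23, 23 and 22 against 42; the cause was not tested. Higher calls made up 53.4% of calls, 37.8% with upper-quartile scaling (which moved the median of all genes to -0.11), 41.4% with quantile normalization and 43.5% with limma on TPM. With 2 libraries per group, the spread of a single gene is poorly known; low counts limit Dgat2 and Scd1 most.

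The labels' numbers 1 and 2 do not say that libraries are paired, and deviations of same-numbered libraries correlated at -0.066. With the replicate block the number of genes called was 6606 against 6785, with 3 members higher (Dgat2 included) and 6 lower, and Acsl1 was 2.86 and Pparg -1.22.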

Other observations

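The deposited annotation marks 89 genes as KEGG PPAR signaling, a list added after the table was seen. Of the 47 tested, 11 rose and 19 fell (23.4% and 40.4%, against 27.1% and 23.7% of all tested genes), with a median log2 fold change of -0.11. The list holds 8 of the 10 genes described above, of which 5 fell and 2 rose. Of the 39 others 9 rose and 14 fell (23.1% and 35.9%), with a median of -0.11. Over all 13355 tested genes 11.3% were called and at least 2-fold apart, 851 higher and 661 lower. Of these 39 genes 3 were higher and 4 lower by that rule, named after their values were seen. Higher were Me1, the malic enzyme gene (4.69-fold, adjusted p = 5.63e-11), Olr1, an oxidised lipoprotein receptor gene (4.47-fold, adjusted p = 6.6e-11), and Fabp3. Lower were Slc27a6, a fatty acid transporter gene (4.69-fold, adjusted p = 4.047e-10), Cyp27a1, a sterol hydroxylase gene (3.53-fold, adjusted p = 4.884e-12), Angptl4, a lipoprotein lipase inhibitor gene (2.57-fold, adjusted p = 5.427e-07), and Fabp7. In the authors' deposited table Hilpda had an adjusted p of 0.137 and Scd1 of 0.732, and Pparg, Fabp4, Dgat2 and Acsl1 were marked significant. Plin2, Cd36, Scd2 and Fabp5 were not marked, with adjusted p-values there of 4.73e-134, 3.51e-33, 8.11e-07 and 0.0126. The log2 folds of the marked genes, vehicle over LUP, were 1.21, 1.75, -2.23 and -2.87. Those of Plin2, Cd36, Scd2 and Fabp5 were 0.844, 0.42, -0.549 and 0.341. Each marked gene thus differed by more than 2-fold there, and each of these unmarked genes by less.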
